A study of Mus musculus with 4 samples.

Results

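The genes described here are 9 of the 23359 rows of an RNA sequencing table from cultured mouse liver tumour cells, chosen by symbol. They serve to make, break down or bind retinoic acid, to take up retinol (Stra6) or to turn retinaldehyde back into retinol (Dhrs3). The retinoid target Tgm2 is the remaining gene. Total RNA was depleted of ribosomal RNA and sequenced. The source was a population of tumour-initiating stem-like cells isolated from liver tumours of C57BL/6 mice and grown with serum, EGF and dexamethasone. The 4 cultures received all-trans retinoic acid (ATRA, the acid form of vitamin A) at 5 µg/ml, suberoylanilide hydroxamic acid (SAHA, which inhibits histone deacetylases) at 0.5 µg/ml, both compounds at these doses, or vehicle. Treatment lasted 16 hours, and for the vehicle culture the labels state no time. Each group had 1 library, so no difference below has a replicate check, and no error or p-value is given. The labels do not say how many tumours, animals or lines the cells came from.

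Retinol from the blood enters some cells through the membrane receptor STRA6 and is oxidised to retinaldehyde by RDH10 and then to retinoic acid by the ALDH1A enzymes, while DHRS3 turns retinaldehyde back into retinol. Inside the cell, CRABP1 and CRABP2 bind retinoic acid, CRABP2 being known for passing it to the retinoic acid receptors, and CYP26 enzymes oxidise it for removal. Retinoic acid bound to its nuclear receptors induces several of these same genes, among them Dhrs3, Stra6 and the Cyp26 genes, so that the pathway feeds back on its own supply. In the liver, retinol is stored mainly as esters in stellate cells.

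Levels are the deposited FPKM values, which scale the fragments on a gene by transcript length and by the mapped total. A difference of at least 1 in log2(FPKM + 1), the 2-fold mark, made a gene higher or lower, and this scale understates differences of low genes. Ratios written as fold are of plain FPKM. Fragments behind a value were estimated from the smallest repeated step in the FPKM of low genes, by which 1 FPKM over 1 kilobase stood for about 95 fragments in the ATRA library, 96.9 in the SAHA library, 102 in the library with both compounds and 96.5 in the vehicle library. That step was the median of values within a fixed range, the same for every library, so like figures across libraries partly follow from that range. The step was taken as 1 fragment, and the counts are approximate. No member's row shared its locus with another row of the table.

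With ATRA alone, 4 members had levels well above those of the other 3 libraries: Dhrs3, Stra6, Cyp26b1 and Tgm2. In the culture that received ATRA together with SAHA, these 4 genes were close to the SAHA culture. Crabp1, the most abundant member, was low in both SAHA-containing libraries. Rdh10 was also lower in those libraries, Crabp2 was at like levels in all 4, and Cyp26a1 and Aldh1a2 were close to undetected throughout. At 1 FPKM or more were 6 members with ATRA, 3 with SAHA, 3 with both compounds and 4 with vehicle. Of all 23359 rows, 8388, 7781, 8002 and 8542 reached that level in the same order.

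**Figure D1:**
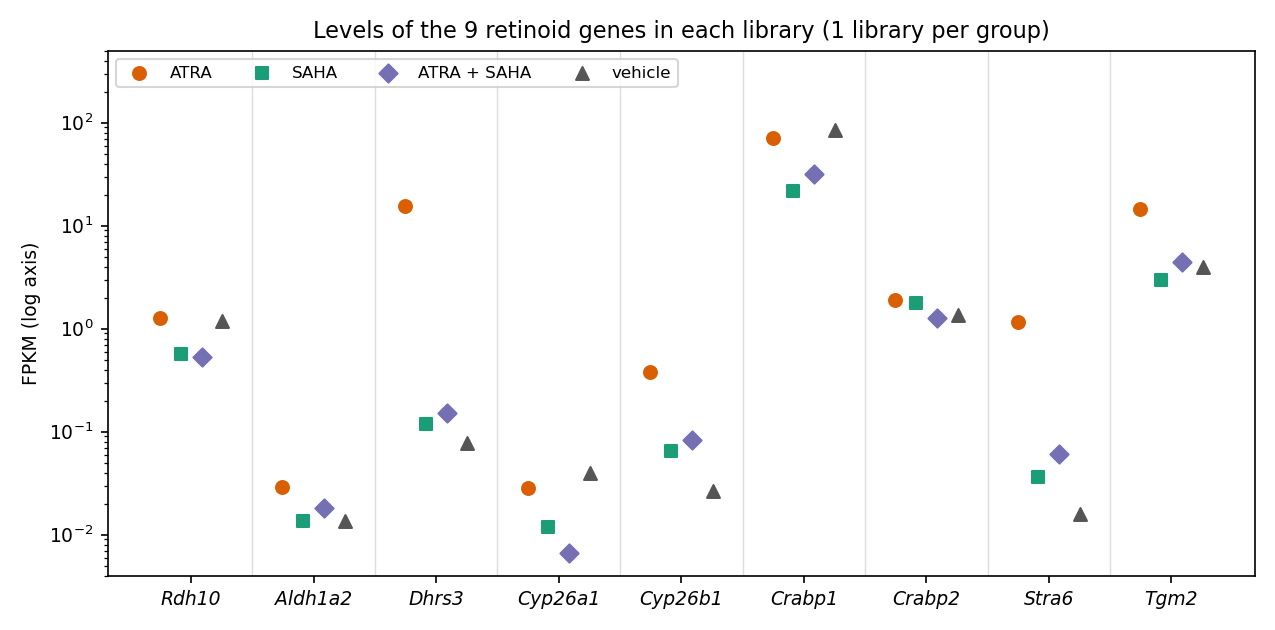
FPKM of each of the 9 genes (log axis), 1 point per library: ATRA (circles), SAHA (squares), ATRA with SAHA (diamonds) and vehicle (triangles). Dhrs3, Cyp26b1, Stra6 and Tgm2 have their highest point in the ATRA library, and Crabp1 is lower in both libraries with SAHA than in the other 2.

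Dhrs3, the retinaldehyde reductase gene, lies on chromosome 4 (144892827 to 144927645, plus strand, mm10). Its level was 15.5 FPKM with ATRA, 0.119 with SAHA, 0.153 with both compounds and 0.0780 with vehicle, or about 1990, 16, 21 and 10 fragments in the same order. The ATRA library stood apart from the other 3, which were all under 0.2 FPKM. The ratio was 199-fold for ATRA against vehicle and 1.28-fold for the combination against SAHA. On the log2(FPKM + 1) scale these were 3.94 and 0.04. Among the 8466 genes that averaged 1 FPKM or more and are not small RNAs, Dhrs3 had the second highest difference with ATRA. It is among them only through its ATRA value, so this rank describes size alone. The deposited row names transcript variant 2 alone, with 1349 bases in GENCODE, so its level per length rests on that transcript.

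Stra6, the gene of the retinol receptor, is on chromosome 9 (58129088 to 58153997, plus strand). It was at 1.17 FPKM with ATRA, 0.0359 with SAHA, 0.0611 with both and 0.0160 with vehicle. The vehicle value rests on only about 4 or 5 fragments, against 302 to 341 with ATRA, depending on the transcript. The SAHA value rests on about 9 to 11 and that with both on 17 to 19. Its ratio was 73.1-fold for ATRA against vehicle and 1.70-fold for the combination against SAHA, with log2 differences of 1.09 and 0.03. The gene passed the 2-fold mark with ATRA, yet its mean over the 4 libraries was only 0.32 FPKM.

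Of the retinoic acid hydroxylases, Cyp26b1 (chromosome 6, 84571414 to 84593908, minus strand) was at 0.377 FPKM with ATRA, 0.0657 with SAHA, 0.0839 with both and 0.0265 with vehicle. About 149 fragments supported the ATRA value, 26 or 27 the SAHA value, 36 that with both and 11 the vehicle value. Again the ATRA library was the highest and vehicle the lowest, a ratio of 14.2-fold, while the combination stood at 1.28-fold the SAHA level. The log2(FPKM + 1) difference with ATRA was 0.42, under the 2-fold mark, and 1.91 with a pseudocount of 0.1. Cyp26a1, usually the most strongly retinoid-induced enzyme of this family (chromosome 19, 37697808 to 37701536, plus strand), was at 0.0283 FPKM with ATRA, 0.0120 with SAHA, 0.00666 with both and 0.0401 with vehicle. These values rest on about 5, 2, 1 and 7 fragments, too few for a ratio. No higher level with ATRA was seen, and a small difference could not be read at this depth. Cyp26c1, the third member of the family, was listed at 0 with ATRA and reached at most 0.0400 FPKM, in the vehicle library.

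The stretches before the start sites of the 3 members with the largest ATRA ratios to vehicle and of Cyp26a1, which did not follow them, are shown from RefSeq (GRCm38.p6, the assembly of mm10) with capitals for direct repeats spaced by 5 bases, built from the hexamers AGGTCA or else AGTTCA or else GGGTCA or else GGTTCA, the arrangement retinoic acid receptors are best known to bind.
Dhrs3, chr4:144892577-144892826, plus strand: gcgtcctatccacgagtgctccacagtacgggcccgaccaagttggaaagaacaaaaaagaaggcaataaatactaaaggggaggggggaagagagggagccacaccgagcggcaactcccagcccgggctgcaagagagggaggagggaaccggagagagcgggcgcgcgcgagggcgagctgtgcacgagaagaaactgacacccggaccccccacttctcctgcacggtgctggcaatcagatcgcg
Stra6, chr9:58128838-58129087, plus strand: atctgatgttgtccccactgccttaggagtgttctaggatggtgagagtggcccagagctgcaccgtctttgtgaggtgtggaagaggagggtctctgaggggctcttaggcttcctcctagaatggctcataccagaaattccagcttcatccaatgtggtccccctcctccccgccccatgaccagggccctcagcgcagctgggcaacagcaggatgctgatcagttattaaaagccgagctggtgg
Cyp26b1, chr6:84593909-84594060, minus strand: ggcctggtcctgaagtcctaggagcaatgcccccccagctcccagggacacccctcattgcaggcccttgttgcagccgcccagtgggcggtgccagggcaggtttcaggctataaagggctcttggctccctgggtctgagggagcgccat
Cyp26a1, chr19:37697558-37697797, plus strand: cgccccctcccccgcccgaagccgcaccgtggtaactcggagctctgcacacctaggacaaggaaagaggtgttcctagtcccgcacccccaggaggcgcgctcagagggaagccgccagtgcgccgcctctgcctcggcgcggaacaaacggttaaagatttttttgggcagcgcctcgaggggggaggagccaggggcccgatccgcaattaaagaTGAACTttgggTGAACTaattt

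Both strands of every RefSeq promoter window, from 250 bases before to 50 after a gene's start, were searched for these repeats. With a spacing of 5 bases they stood in 32 of 32851 windows (0.0974%). The 9 members had 11 windows, for 6 of the genes, and 1 of the 11 held a match, that of Cyp26a1, 32 to 16 bases before the start site. It reads AGTTCA on the opposite strand, so the printed strand shows TGAACT. For Cyp26b1 the bases before the deposited locus are shown, part of a RefSeq window whose start site lies inside it. With spacings of 1 and 2 bases the repeats stood in 73 and 88 windows, none of them a member's. The receptor gene Rarb also held a match with a spacing of 5 bases, on the minus strand at chr14:16575513-16575529.
Rarb: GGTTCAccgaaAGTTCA
Rarb was at 1.11 FPKM with ATRA, 0.344 with SAHA, 0.367 with both and 0.747 with vehicle. So the members whose windows held no such match included the 3 genes with the largest ATRA ratios, and the member with a match was near the limit of detection in all 4 libraries. A missing match says only that these letters are not in the window. Rdh10, Crabp2 and Tgm2 had no window.

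Tgm2 encodes tissue transglutaminase, an enzyme that crosslinks proteins and a classical retinoid-induced gene (chromosome 2, 158116405 to 158146392, minus strand). It was measured at 14.7 FPKM with ATRA, 3.0 with SAHA, 4.45 with both and 3.98 with vehicle. Unlike Dhrs3 and Stra6 it was expressed without added ATRA, with about 1381 fragments in the vehicle library. The combination exceeded SAHA by 1.48-fold, against a 3.69-fold ratio of ATRA to vehicle. Of the other 7 genes of the transglutaminase family, none reached a mean of 1 FPKM, and Tgm4 was the highest of them, at 0.805 FPKM with ATRA and 0.546 with vehicle.

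Crabp1, which encodes a cytosolic retinoic acid-binding protein (chromosome 9, 54764808 to 54773109, plus strand), was at 70.5 FPKM with ATRA, 21.9 with SAHA, 31.9 with both and 85.4 with vehicle. The 2 libraries with SAHA were both below the 2 without it. Against the vehicle library its log2 difference was -0.27 with ATRA, -1.92 with SAHA and -1.39 with both. Crabp2, its paralog on chromosome 3 (87948693 to 87953372, plus strand), was much less abundant, at 1.89 FPKM with ATRA, 1.77 with SAHA, 1.27 with both and 1.35 with vehicle. Crabp2 is listed among retinoic acid targets in other cells, but its log2 difference with ATRA was 0.30, with about 167 fragments against 121. Per length, Crabp1 exceeded Crabp2 in every library.

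The members that make retinoic acid from retinol, Rdh10 and Aldh1a2, were weakly expressed. Rdh10, the retinol dehydrogenase gene (chromosome 1, 16105882 to 16132550, plus strand), was at 1.26 FPKM with ATRA, 0.563 with SAHA, 0.526 with both and 1.19 with vehicle. The libraries with SAHA had less than the libraries without it, with ratios of 0.475 for SAHA and 0.444 for the combination against vehicle. These differences were -0.48 and -0.52 on the log2(FPKM + 1) scale, and -0.95 and -1.04 with a pseudocount of 0.1. After a rescaling on rows that are neither small RNAs nor the row Gm20594, these differences were -0.28 and -0.60 on the log2(FPKM + 1) scale. Aldh1a2, the retinaldehyde dehydrogenase gene (chromosome 9, 71215789 to 71296243, plus strand), was at 0.0287 FPKM with ATRA, 0.0137 with SAHA, 0.0180 with both and 0.0135 with vehicle, each from about 3 to 6 fragments. The related Aldh1a1 and Aldh1a3 were as low: Aldh1a1 was at 0.0444 FPKM with ATRA and 0.0216 with vehicle, and Aldh1a3 at 0.0190 with ATRA and 0.0154 with vehicle.

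The order of the levels in the vehicle library was Crabp1, Tgm2, Crabp2, Rdh10, Dhrs3, Cyp26a1, Cyp26b1, Stra6 and Aldh1a2. The last 4 lay at 0.0401, 0.0265, 0.0160 and 0.0135 FPKM, and with no replicate their order cannot be read as a difference. With ATRA, Dhrs3 and Tgm2 stood next after Crabp1, and Stra6 was close to Rdh10.

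On the log2(FPKM + 1) scale, 3 of the 9 members were higher with ATRA against vehicle (Dhrs3, Tgm2 and Stra6) and 0 lower, where 0.428% of all 23359 rows were higher and 0.527% lower. Among the 8616 rows that averaged 1 FPKM or more, 0.917% were higher and 1.2% lower. Of the members 4 reached that mean, Dhrs3 only through its ATRA value, so they do not stand for all 9. With SAHA, 0 members were higher and 1 was lower, Crabp1. There 3.03% of all rows were higher and 6.37% lower, and 7.88% and 16% of the 8616. The combination against vehicle again gave 0 higher and Crabp1 lower, where 4.24% of all rows were higher and 5.13% lower, and 11.1% and 12.6% of the 8616. With SAHA, Crabp1 ranked 329 from the lowest of the 8466 genes.

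The layout allows ATRA to be compared in the absence and in the presence of SAHA, through 2 pairs of cultures that share no library. Beside SAHA, the addition of ATRA took 0 of the 9 members past the 2-fold mark in either direction. In that pair 1.18% of all rows were higher and 0.372% lower, and 3.04% and 0.929% of the 8616. The members' log2 differences in that pair lay between -0.28 (Crabp2) and 0.52 (Crabp1), with 0.45 for Tgm2. The sign of several of these small differences depended on the scaling. After a rescaling on rows that are neither small RNAs nor Gm20594, Tgm2 stood at -0.14, Crabp1 at -0.20, Dhrs3 at -0.05 and Cyp26b1 at -0.03, while Crabp2 kept its sign at -0.76, and the median of the 8616 rows was -0.39, against 0.14 as deposited. The row Gm20594 alone held 16.6% of all FPKM with ATRA, 33.9% with SAHA, 10.3% with both and 18.0% with vehicle. For ATRA against vehicle, Dhrs3 lay between 3.77 and 3.94 and Tgm2 between 1.48 and 1.66 over the scalings. Stra6, at 1.09 as deposited, came just under the 2-fold mark in that rescaling, which left 2 of the 9 members higher with ATRA.

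**Figure D2:**
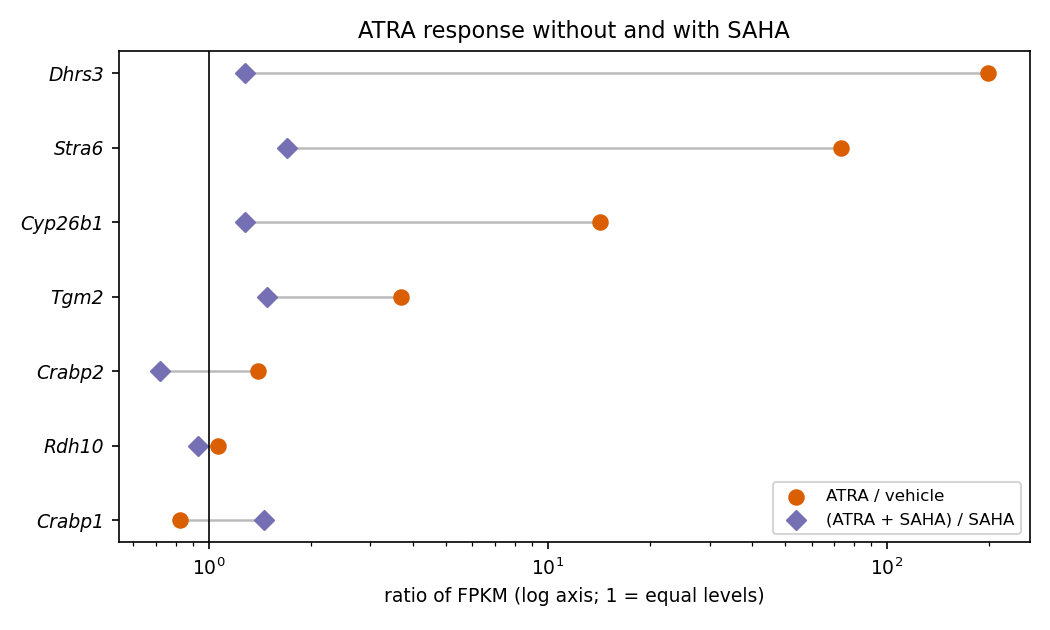
Ratio of FPKM (log axis) for ATRA over vehicle (circles) and for ATRA with SAHA over SAHA (diamonds), for 7 of the 9 genes. Cyp26a1 and Aldh1a2 are left out because they rest on few fragments in every library. The Stra6 ratios are rough, as its vehicle value rests on about 4 or 5 fragments and its SAHA value on 9 to 11. Dhrs3, Stra6, Cyp26b1 and Tgm2 lie at 199, 73.1, 14.2 and 3.69 without SAHA and at 1.28, 1.70, 1.28 and 1.48 with it.

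The same contrast was expressed as a departure from additivity, the log2 ratio of the combination to vehicle minus the sum of those of ATRA and of SAHA. It was -3.90 for Dhrs3, -1.21 for Tgm2, -1.06 for Stra6, -0.59 for Crabp2, -0.40 for Cyp26b1 and -0.08 for Rdh10. Crabp1 was at 0.79, and Cyp26a1 and Aldh1a2 were within 0.02 of 0. Over the 8466 genes the median departure was 0.15, and the 5th and 95th percentiles were -0.57 and 0.93. Dhrs3 had the second lowest value of them, and it is among them only through its ATRA value. Its level in the combination was 101-fold below that in the ATRA culture.

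Against ATRA, the combination was lower for 4 of the 9 members (Dhrs3 at -3.84, Tgm2 at -1.53, Crabp1 at -1.12 and Stra6 at -1.03), and higher for 0. Of all rows 4.7% were lower and 4.01% higher, and of the 8616 rows 11.9% and 10.5%. All 9 members had differences below 0 in this pair, as did 10913 of all 23359 rows and 4122 of the 8616. Those of Cyp26a1 (-0.03) and Aldh1a2 (-0.02) rest on so few fragments that their signs cannot be read. This comparison shares the ATRA library with that of ATRA against vehicle, so a gene high in that library stands out in both. In the 2 rescalings Stra6 stood just short of the 2-fold mark here, at -0.98 and -0.95, which left 3 of the 9 members lower.

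**Figure D3:**
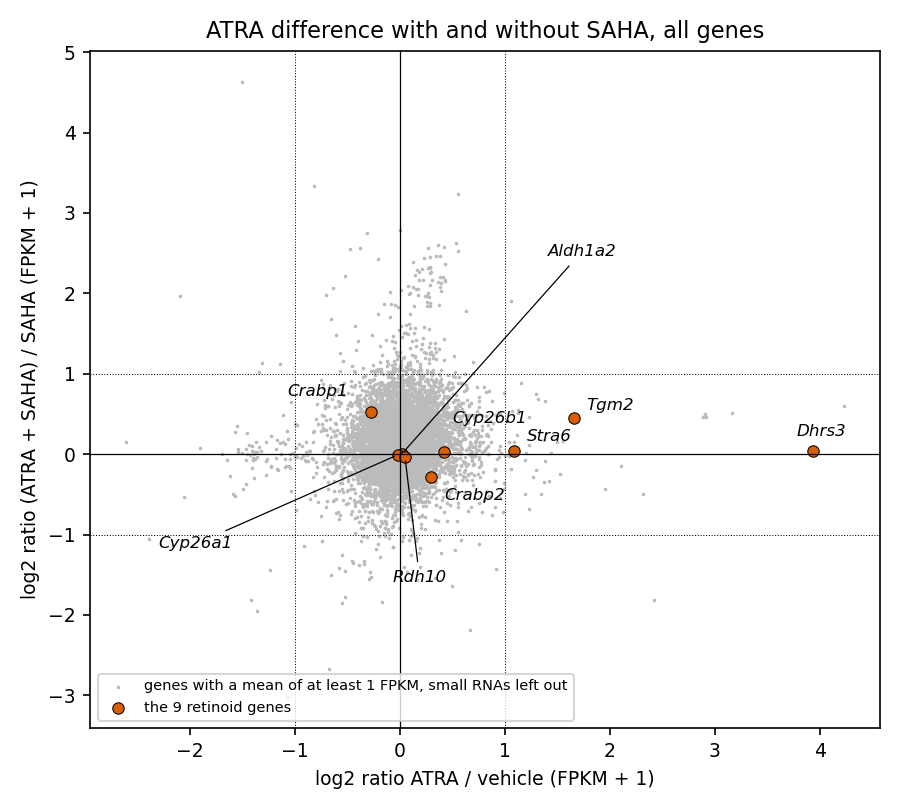
Each grey point is 1 gene averaging 1 FPKM or more, small RNAs left out; the x axis is the log2 ratio of ATRA to vehicle and the y axis that of ATRA with SAHA to SAHA, on FPKM + 1, and dotted lines mark 2-fold. The 9 retinoid genes are in orange: Dhrs3 is at 3.94 on the x axis and 0.04 on the y axis.

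The same 2 pairs were compared over all genes. Of the 43 genes higher with ATRA against vehicle, small RNAs left out, 1 was among the 211 genes higher in the combination against SAHA, which is 2.33% of the first group and 0.474% of the second. Of all 8466 genes, 2.49% were higher in the combination against SAHA, close to the 2.33%. That gene was Igfbp4, named after its values were seen. The 43 genes had a median log2 difference of 0.15 in the second pair, and 26 of them (60.5%) lay above 0. Over all 8466 genes the median was 0.14 and 66.9% lay above 0. With small RNAs kept, 11 of the 79 rows higher with ATRA against vehicle were also higher in the combination against SAHA (13.9%). Of the 8616 rows, 3.04% were higher there.

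Genes with the most similar pattern were found from the distance between the 3 log2(FPKM + 1) ratios to vehicle, all of which share the vehicle library. Closest to Dhrs3 were the proliferin gene Prl2c4 (distance 0.56), the aldehyde dehydrogenase gene Aldh3a1 (0.91) and Id2, an inhibitor of DNA-binding helix-loop-helix factors (1.73). Prl2c4 has near-identical paralogs, so its own value is uncertain. Aldh3a1 was at 29.7 FPKM with ATRA, 1.55 with SAHA, 2.62 with both and 2.42 with vehicle. The genes closest to Tgm2 were the esterase gene Esd (0.46), the quinone reductase gene Nqo1 (0.53) and Slc48a1, a heme transporter gene (0.59). For Crabp1 they were Plp2 (0.05), Hdgfrp3 (0.15) and Ltbp4 (0.18), and for Crabp2 4930579G24Rik (0.07), Ephb4 (0.09) and Pigx (0.09).

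The wider retinoid pathway was read from 6 lists with 78 genes, of which 76 were in the table and 23 had a mean of at least 1 FPKM. With ATRA 3 of the 23 were higher (Dhrs3, Tgm2 and the lipase gene Lipe) and 0 lower, against 0.917% and 1.2% of the 8616 rows. Lipe was under the mark in both rescalings, which left 2 higher. Dhrs3 is among the 23 only through its ATRA value. Without that filter, 4 of the 76 genes were higher and 0 lower, where 0.428% and 0.527% of all 23359 rows were. The 23 had a median log2 difference of 0.29 where all 8616 rows had -0.00055. With SAHA 0 of the 23 were higher and 7 lower, where 7.88% and 16% of the 8616 rows were. The median was -0.66 against -0.12 over the 8616 rows. In the rescaling without small RNAs and Gm20594, 3 were higher and 5 lower, where 1565 and 869 of the 8616 rows were. The median of the 8616 rows was then 0.25. The combination against vehicle had 1 higher, Lipe, and 8 lower, where 11.1% and 12.6% of the rows were, with a median of -0.58 against 0.04. In the combination against SAHA the count past the mark was 0 of 23, where 3.04% of the rows were higher and 0.929% lower, with a median of 0.22 against 0.14. The members described above are part of these lists.

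Among the retinol and retinaldehyde oxidoreductases, 6 of 24 had a mean of at least 1 FPKM. Rdh11, a retinaldehyde reductase gene, was at 15.0 FPKM with ATRA, 3.12 with SAHA, 3.28 with both and 10.8 with vehicle. Adh7, an alcohol dehydrogenase gene that can act on retinol, was at 11.5, 1.78 and 2.47 FPKM with ATRA, SAHA and both, against 13.8 with vehicle. Rdh14 was the remaining gene that was lower with SAHA, at a log2 difference of -1.24. As in Crabp1, the libraries with SAHA were the low ones for these 3 genes, while Adh5 was at 17.4 FPKM with ATRA, 14.7 with SAHA, 23.5 with both and 13.9 with vehicle. Rdh13 was the only list gene higher in the combination against ATRA, at a log2 difference of 1.2.

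Of the binding and uptake list, 3 of the 11 genes in the table reached the mean, Crabp1, Crabp2 and Fabp5. Fabp5, a fatty acid-binding protein gene whose product can carry retinoic acid, was at 2.88 FPKM with ATRA, 0.654 with SAHA, 0.580 with both and 2.07 with vehicle. In the storage list Lipe, an ester hydrolase gene, was at 2.94 FPKM with ATRA, 2.04 with SAHA, 3.05 with both and 0.939 with vehicle. Its log2 difference with ATRA was 1.02, and of the 3 list genes higher with ATRA it was the one whose level in the combination was not below that with ATRA.

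The retinoic acid target list had 11 of 34 genes averaging 1 FPKM or more, with a median log2 difference of 0.53 for ATRA against vehicle. Below Dhrs3 and Tgm2 came smaller differences. Nrip1, a nuclear receptor corepressor gene, was at 0.70, Rai14 at 0.65, the receptor gene Rarg at 0.64 and Bhlhe40, a clock-related repressor gene, at 0.53. In the combination against ATRA, 6 of the 11 were lower: Dhrs3, Tgm2, Nrip1, Rai14, Rarg and Bhlhe40. Of the 8616 rows 11.9% were lower there. Dhrs3 is among the 11 only through its ATRA value. Without that filter, 7 of the 34 genes were lower, where 4.7% of all 23359 rows were. With SAHA against vehicle the median of the list was -0.66, and Rai14, Rarg and Tshz1 were lower, 3 of 11 where 16% of the rows were. Of the receptors, Rarg had the highest level in vehicle (14.2 FPKM with ATRA, 2.0 with SAHA, 2.97 with both and 8.76 with vehicle), followed by Rxrb at 4.14 and Rara at 3.05 with vehicle.

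**Figure D4:**
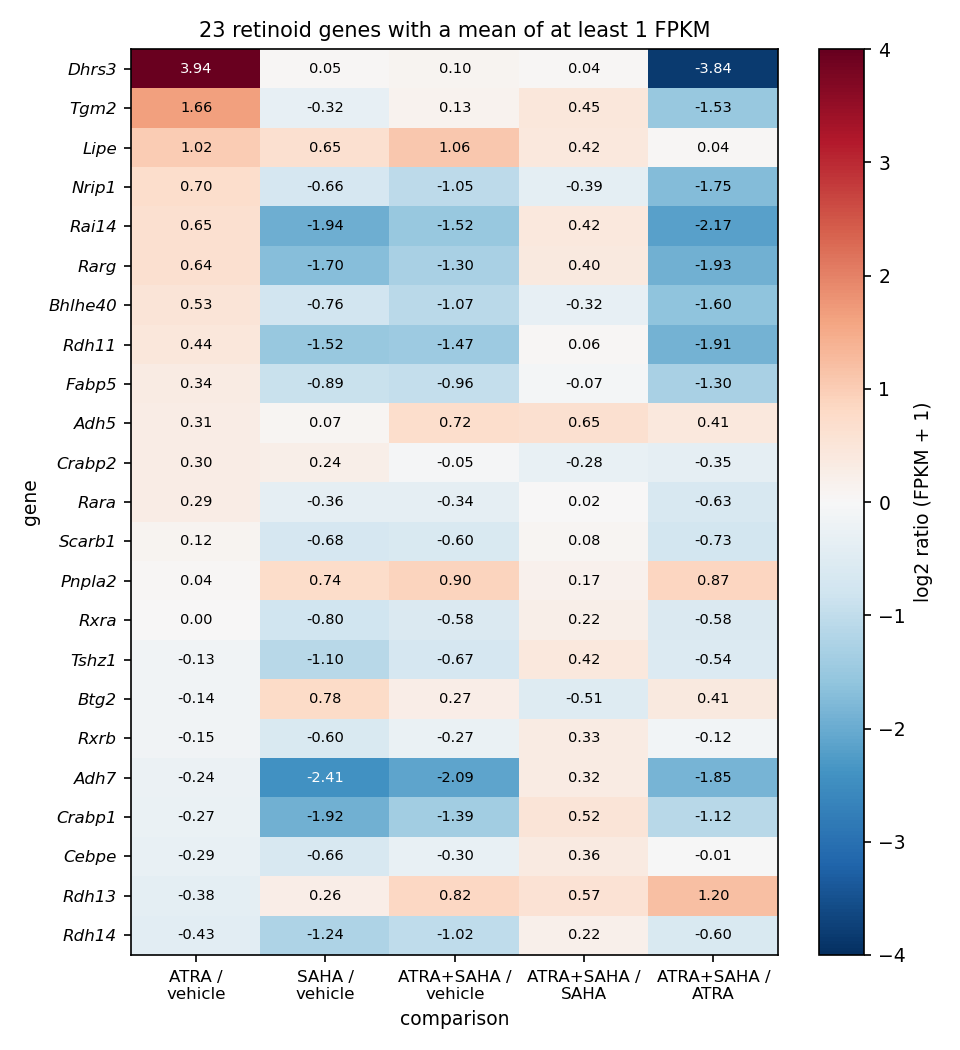
Log2 ratio of FPKM + 1 for the 23 listed retinoid genes averaging 1 FPKM or more, in 5 comparisons (columns), sorted by ATRA against vehicle; red is higher and blue lower in the group named first. The column of ATRA with SAHA against SAHA holds no value of 1 or more in size, and that of ATRA with SAHA against ATRA is at -1 or lower for Dhrs3, Rai14, Rarg, Rdh11, Adh7, Nrip1, Bhlhe40, Tgm2, Fabp5 and Crabp1.

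Markers of liver cell types were read in each library. None of 7 hepatocyte genes reached 1 FPKM in any library, with Alb at 0.0108 FPKM in vehicle. Of 7 stellate cell genes, the marker of retinol-storing cells Lrat was at 0.00347 FPKM with ATRA and 0.00856 with vehicle, while Des was at 18.1 with ATRA and 21.4 with vehicle. The summed stellate list was 19.9 FPKM with ATRA, 17.1 with SAHA, 19.3 with both and 23.4 with vehicle. The tumour-initiating marker Cd44 was at 42.2, 31.5 and 21 FPKM with ATRA, SAHA and both, against 61.8 with vehicle, and the macrophage marker Cd68 at 2.41, 5.20 and 4.26 against 1.89, with the other 3 macrophage genes under 0.03. Some markers differed between libraries as members did. Krt19, a bile duct keratin gene, was at 0.778 FPKM with ATRA, 0.127 with SAHA, 0.0710 with both and 0.102 with vehicle. Like Dhrs3 it was highest with ATRA. In the same list Sox9 was also highest with ATRA, at 2.69 FPKM against 1.19 with vehicle. Krt7 was not, at 2.88 with ATRA against 2.99 with vehicle. Epcam was lowest with ATRA, at 0.00741 FPKM against 0.0406 with vehicle. Sox2 was at 7.44, 0.575 and 0.548 FPKM with ATRA, SAHA and both, against 3.20 with vehicle, and Tlr4 at 5.08, 0.466 and 0.333 against 5.09. The remaining 3 tumour-initiating genes were near 0, with Pou5f1 at most 0.0572, Nanog at most 0.0427 and Prom1 at most 0.00357 FPKM. Sox2 and Tlr4 were low in the libraries with SAHA, as Crabp1 and Rdh10 were. So was the stellate gene Pdgfrb, at 1.07, 0.104 and 0.107 FPKM against 1.55. The stellate gene Ngfr went the other way, at 0.642, 1.73 and 1.86 FPKM against 0.350. The stellate genes Reln, Rgs5 and Hand2 were under 0.03 FPKM. Of the bile duct list Spp1 led, at 566, 939 and 433 FPKM against 336, and of the fibroblast list Vim, at 432, 319 and 362 against 562. The other 5 fibroblast genes were low, with Pdgfra at most 0.472 FPKM, Col3a1 at most 0.0465, Col1a1 at most 0.0416, Dpt at most 0.0179 and Col1a2 at most 0.0157. None of 5 endothelial genes reached 1 FPKM. The part of these marker differences in the retinoid results was not tested. In bulk RNA, fewer cells of a type and less RNA per cell cannot be told apart.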

How the data were processed

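RNA was sequenced from 4 cultures, 1 per group. The submitters' processing notes name Trimmomatic 0.32, Cuffdiff and the mouse build mm10. Per the file headers, the deposited columns hold FPKM, 1 for each library. The aligner, annotation, strand setting and library scaling were not given in these sources. The deposited loci were written 1-based.

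Values were taken as log2(FPKM + 1). Lists and genome-wide shares used the 8616 rows averaging 1 FPKM or more, of which 150 are small RNAs (called from symbols and RefSeq gene types). Shares over all 23359 rows and list counts without that filter are given where stated. Ranks, the spread of departures and the nearest patterns used the 8466 genes left without small RNAs. The overlap between the pairs of cultures is given both ways. No test was run on single libraries, and the 2-fold mark describes size alone. Alternatives were a pseudocount of 0.1, no filter, a mean of at least 5 FPKM, centring on the median ratio and 2 rescalings. The size rule was run on simulated data with built-in changes larger in size than the mark. This checks the calculation and not the noise of these libraries. Fragments were estimated from genes with 1 RefSeq transcript of 1000 to 4000 bases in GENCODE M21. The first and second steps were medians within fixed ranges of low values. The second lay at 1.92 to 2.02 times the first, but those ranges largely set this ratio, so it does not check the step. Promoter windows are RefSeq's on GRCm38.p6. Python 3.11.15 with pandas 2.3.3 was used. The members, the lists, the comparisons and the motif were chosen with earlier results of these data known, so none of the patterns is independent support. By the naming rule, all 9 members, list genes averaging 1 FPKM or more and the 3 genes nearest in pattern to each member with that mean are named; list genes below it, named for their role, were chosen after their values were seen. Some list genes are not reported here.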

Additional observations from a re-analysis of the deposited data

Results flagged for a closer look

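For 2 members with a mean of at least 1 FPKM, ATRA's difference pointed opposite ways with and without SAHA, from 1 library per group. Crabp1 differed by 0.52 in the combination against SAHA and by -0.27 in ATRA against vehicle, a difference between the pairs of 0.79 on the log2 scale. Crabp2 differed by -0.28 in the combination against SAHA and by 0.30 in ATRA against vehicle, a difference of -0.59. Neither difference was tested. After the rescaling on rows that are neither small RNAs nor Gm20594, Crabp1 stood at -0.20 and -0.45 in these pairs, no longer opposite. Crabp2 stood at -0.76 and 0.18, still opposite.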

How the results depend on the processing

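No paired analysis was possible because each group had 1 library and the labels give no replicate numbers. For the same reason no library could be left out. Centring changed no count of members. Over all 9 members, both rescalings left 3 lower in the combination against ATRA (without Stra6; 4 as deposited), and the rescaling without small RNAs and Gm20594 left 2 higher with ATRA (without Stra6; 3 as deposited). With a pseudocount of 0.1, 4 members were higher with ATRA (Cyp26b1 added), 6 lower in the combination against ATRA (Cyp26b1 and Rdh10 added) and 2 lower in the combination against vehicle (Rdh10 added). Both rescalings left 2 retinoid list genes higher with ATRA (without Lipe; 3 as deposited). With a mean of at least 5 FPKM, 1 member was higher with ATRA (2 of the 4 averaging 1 FPKM or more as deposited), and the retinoid list genes were 1 higher with ATRA, 0 higher and 5 lower in the combination against vehicle, and 0 higher and 6 lower in the combination against ATRA. With that filter, which leaves fewer genes, all genes called were 37 higher and 29 lower with ATRA, 337 and 596 with SAHA, 502 and 409 in the combination against vehicle, 165 and 40 against SAHA, and 435 and 419 against ATRA. With a pseudocount of 0.1, 130 genes were higher with ATRA, 1099 with SAHA, 1484 in the combination against vehicle and 1410 against ATRA, and 490 were higher and 185 lower against SAHA. With it the retinoid list had 2 higher and 11 lower with SAHA, 3 higher in the combination against vehicle and 2 higher against ATRA, and the departure of Cyp26b1 was -1.76. The rescaling without small RNAs and Gm20594, added after the data were seen, gave retinoid list counts of 3 higher with SAHA, 0 higher in the combination against vehicle and 1 lower against SAHA, and a departure of -1.0 for Stra6. With it 1565 genes were higher and 869 lower with SAHA (679 and 1381 as deposited, 881 and 1157 after centring), 639 and 1357 in the combination against vehicle (954 and 1089 as deposited), and 122 and 524 in the combination against SAHA (262 and 80 as deposited, 191 and 111 after centring). Apart from what the settings' construction shows, the cause was not tested. Depth limits Cyp26a1 and Aldh1a2, each with an estimated 7 fragments or fewer in every library.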
